A study of Mus musculus with 12 samples.

Results

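Collagens are the proteins of the extracellular matrix whose chains wind into triple helices, and in mice each chain has its own gene, named Col with a type number and a chain number. All symbols of that form in 2 deposited count tables of mouse liver were taken, which gave 44 of 23420 genes. The 26 with a mean of at least 10 counts over the 12 libraries are described. They comprise 7 of 11 fibrillar chains, 5 of 6 type IV chains, which form the basement membrane network, and 14 of 27 other collagens. Just inside that limit was Col22a1 with a mean of 10.8 counts and just outside it Col9a1 with 9.17. The 18 chains below it were Col2a1, Col4a6, Col6a4, Col7a1, Col8a2, Col9a1, Col9a2, Col9a3, Col10a1, Col11a1, Col11a2, Col17a1, Col19a1, Col23a1, Col24a1, Col25a1, Col26a1 and Col28a1, of which Col2a1 and Col26a1 had no count.

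The tables hold poly(A) RNA-seq of C57BL/6 mouse liver in 4 groups of 3 libraries. Mice with floxed Sqstm1, the gene of the autophagy adaptor p62, and no Cre recombinase (p62F/F) share a table with floxed mice that carry Cre driven by the albumin promoter and so lose p62 in hepatocytes (p62Δhep). The other table sets mice with floxed Tsc1 and Cre, lacking Tsc1 in hepatocytes (Tsc1Δhep), beside mice with both floxed genes and Cre, lacking Tsc1 and p62 there (Tsc1/p62Δhep). Tsc1 is needed for the complex that keeps the growth kinase mTORC1 in check. All groups but p62F/F carry Cre, so the transgene and the lost p62 cannot be told apart in the first table, whereas both groups of the second table carry it. Cre under this promoter is meant to spare liver cells other than hepatocytes. No label gives a mouse's age, sex or diet.

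Fibrillar collagens are secreted as procollagens, trimmed and bundled into fibrils, and types I and III make up most of a liver scar. Type IV chains form sheets under epithelia and vessels, while the others decorate fibrils, form filaments or span membranes. In liver, stellate cells and portal fibroblasts make most fibrillar collagen, endothelial and bile duct cells contribute type IV, and hepatocytes are known to make type XVIII collagen.

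Libraries held 15792048 to 33377247 counts. Sqstm1 ranged from 331 to 363 CPM (counts scaled to library size, here by TMM over the 12 libraries) in p62F/F and from 781 to 1183 in Tsc1Δhep, against 12.9 to 20.7 in p62Δhep and 14.2 to 19.4 in Tsc1/p62Δhep. Tsc1 was 27.2 to 41.6 CPM in the first table. In the second it was 5.63, 5.34 and 10.8 CPM in Tsc1Δhep and 13.5, 11.7 and 9.24 in Tsc1/p62Δhep. Library 3 of Tsc1Δhep thus lay within the range of Tsc1/p62Δhep. Hepatocyte markers, among them albumin, summed to between 26374 and 111024 CPM across the libraries. Library 1 of Tsc1Δhep stood apart. Its stellate and fibroblast markers summed to 32.7 CPM and its endothelial markers to 35.4, the lowest of the 12 libraries, and its cholangiocyte markers to 5160, the highest. Spp1 alone made up 5069 of that cholangiocyte sum. The ribosomal precursor Rn45s took 0.0751% to 3.496% of the counts. Whether each library is its own animal is not in the labels, so p-values reflect only how these samples scatter, in part perhaps technically.

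Type XVIII collagen dominated the family's RNA in every group. Levels of different genes are compared per kilobase of exon. On that scale Col18a1, the basement membrane proteoglycan from which endostatin is cut, took 76.5% ± 4.90 (SD, n = 3) of the summed collagen level in p62F/F and 77.3% ± 1.56 in p62Δhep. It took 58.6% ± 5.65 in Tsc1Δhep and 83.3% ± 2.70 in Tsc1/p62Δhep. The second place went to Col14a1 in p62F/F, to Col4a1 in p62Δhep and Tsc1Δhep, and to Col5a2 in Tsc1/p62Δhep. Col5a2 held 0.615% ± 0.0813 of the summed level in p62F/F and 8.79% ± 1.71 in Tsc1/p62Δhep. As group means, all 26 together took 0.117% to 0.168% of the library size after TMM scaling, which is not the raw count total.

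The 3 classes ranked differently across the 4 groups. Summed type IV chains stood at 11.8 ± 3.64 CPM per kb in p62F/F, 11.3 ± 2.73 in p62Δhep, 32.7 ± 15.3 in Tsc1Δhep and 3.69 ± 0.341 in Tsc1/p62Δhep. All 3 Tsc1/p62Δhep libraries lay below every library of the other groups, and all 3 Tsc1Δhep libraries lay above those of p62F/F. Summed fibrillar chains stood at 15.0 ± 4.65, 13.6 ± 2.23, 20.3 ± 9.02 and 25.8 ± 4.72 CPM per kb in the same order. Without Col5a2 the other 6 fibrillar chains summed to 13.9 ± 4.66, 12.5 ± 2.66, 17.1 ± 10.3 and 5.55 ± 0.839. So the high fibrillar sum of Tsc1/p62Δhep was carried by 1 chain, and the remaining 6 were lower there than in every library of p62F/F and p62Δhep. The sum of the other collagens followed Col18a1, at 149 ± 6.38, 151 ± 13.04, 106 ± 47.8 and 201 ± 6.60 CPM per kb, and the 13 without it summed to 14.7 ± 1.53, 14.8 ± 2.33, 14.0 ± 8.30 and 8.85 ± 1.72. Counting Col15a1 and Col18a1 as basement membrane collagens turns the order of that class, to 126 CPM per kb in Tsc1Δhep and 196 in Tsc1/p62Δhep. Levels in different tables were not tested, because the table and the Tsc1 deletion cannot be told apart.

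**Figure D1:**
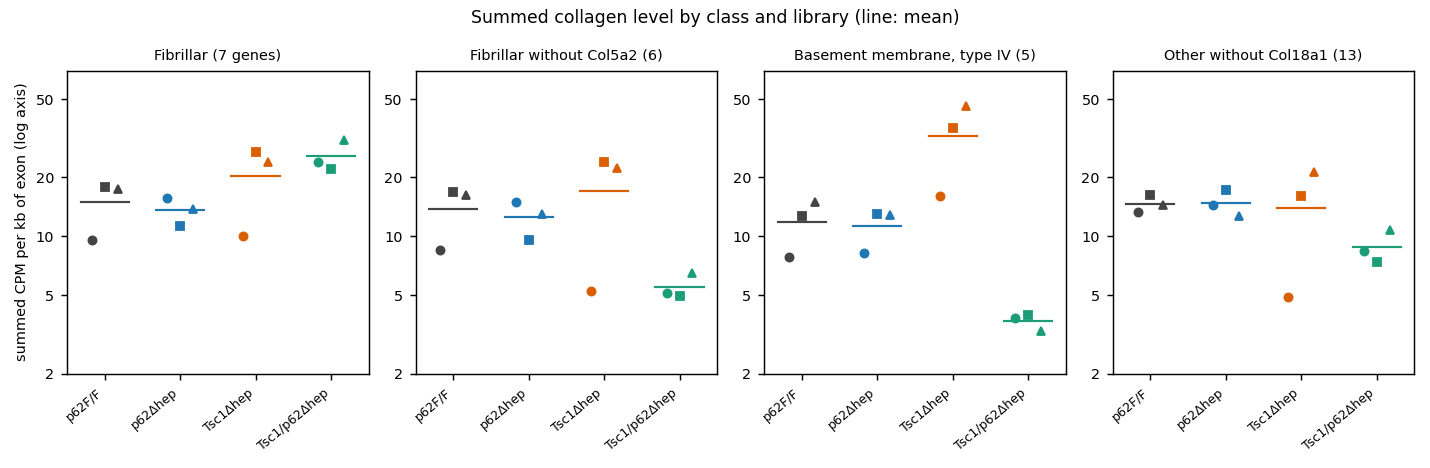
Summed level in CPM per kilobase of exon (vertical axes, log scale) of the 7 fibrillar chains, of 6 of them without Col5a2, of the 5 type IV chains and of the 13 other chains without Col18a1, in each library (points) of the 4 groups (horizontal axis), with lines at group means. Type IV chains average 3.69 in Tsc1/p62Δhep against 32.7 in Tsc1Δhep, and fibrillar chains 25.8 there with Col5a2 but 5.55 without it.

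Set against Tsc1Δhep, Tsc1/p62Δhep livers showed the family's main changes. There 9 collagens fell and 2 rose of the 21 described chains tested. Col22a1, counted among the 9, met the limit on mean counts only through Tsc1Δhep, where it was high. Its fall was thus favoured by that limit. Among all 12620 genes tested, 14.9% fell and 9.25% rose at a Benjamini-Hochberg adjusted p below 0.05 in edgeR's quasi-likelihood test. The collagens' median log2 fold change was -1.56, against -0.05 over all genes. The other 5 described chains (Col4a3, Col4a4, Col6a5, Col6a6 and Col20a1) had too few counts in that table to be tested. In bulk tissue, fewer cells of a type and less RNA per cell cannot be told apart. The count of falls was 5 without Tsc1Δhep library 2, Tsc1/p62Δhep library 1 or Tsc1/p62Δhep library 2, and 13 without Tsc1Δhep library 1. The count of rises was 1 without Tsc1Δhep library 2 or any 1 Tsc1/p62Δhep library, and 4 without Tsc1Δhep library 3. Over all genes 1167 rose and 1886 fell. Library totals with no scaling moved the median of all genes by -0.35 and gave 576 and 3337, with 1 collagen higher and 11 lower. After trends by GC content and length were removed, 2262 rose and 1801 fell, with 4 collagens higher and 9 lower.

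In the fibrillar class, the type I and III chains fell and 2 others rose. Of 7 chains tested, 3 fell (Col1a1, Col1a2 and Col3a1), 2 rose (Col5a2 and Col27a1) and 2 (Col5a1 and Col5a3) did not pass the test, with a class median of -0.99. Col1a1, which encodes the main chain of type I collagen, read 8.85, 40.4 and 41.5 CPM in Tsc1Δhep and 3.96, 4.002 and 5.65 CPM in Tsc1/p62Δhep. Library 1 of Tsc1Δhep was the lowest of its group, and the groups did not overlap. The log2 fold change was -2.73 ± 0.56 (SE, adjusted p = 0.0135). Col1a2, the partner chain of type I collagen, read 12.6, 45.5 and 38.3 CPM in Tsc1Δhep and 6.81, 8.004 and 11.7 CPM in Tsc1/p62Δhep, with a log2 fold change of -1.86 ± 0.48 (SE, adjusted p = 0.0278). Col3a1, the chain of the thin reticular fibres that run through the liver, read 23.3, 119 and 97.4 CPM and then 13.1, 14.8 and 22.5 CPM, with a log2 fold change of -2.25 ± 0.56 (SE, adjusted p = 0.0260). For all 3 chains the lowest Tsc1Δhep library stood above the highest Tsc1/p62Δhep library.

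Leaving out single libraries ended these calls. Without Tsc1Δhep library 2, adjusted p was 0.0526 for Col1a1, 0.103 for Col1a2 and 0.0937 for Col3a1 by edgeR. Without Tsc1/p62Δhep library 1 it was 0.0684, 0.115 and 0.109, and without library 2 of that group 0.0644, 0.107 and 0.101. Without its library 3 it was 0.0573 for Col1a2 and 0.0596 for Col3a1. Between p62F/F and p62Δhep the same chains overlapped. Col1a1 read 5.03, 13.2 and 18.3 CPM in p62F/F and 11.1, 6.86 and 13.6 in p62Δhep, Col1a2 6.06, 19.003 and 21.4 CPM and then 21.8, 11.7 and 16.5. Col3a1 read 15.9, 45.1 and 44.9 CPM in p62F/F and 37.9, 26.3 and 31.6 in p62Δhep. In all 3, library 1 of p62F/F was the lowest of its group.

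Type V collagen, which nucleates fibrils and limits their width, split by chain. Col5a2 read 45.4, 28.1 and 17.3 CPM in Tsc1Δhep and 180.5, 165 and 236 CPM in Tsc1/p62Δhep, so every library lacking both genes was far above every other. Its log2 fold change was 2.68 ± 0.38 (SE, adjusted p = 0.00387), a 6.39-fold rise that held without any 1 library. With Tsc1 intact it read 10.4, 9.20 and 11.5 CPM in p62F/F and 7.44, 15.4 and 8.30 in p62Δhep, all below the lowest Tsc1Δhep library. Its partner Col5a1 overlapped between the groups, with 0.932, 10.6 and 14.5 CPM in Tsc1Δhep and 4.59, 3.81 and 4.68 CPM in Tsc1/p62Δhep and a log2 fold change of -0.99 ± 0.78 (SE, adjusted p = 0.369). Col5a3, the third chain, read 2.50, 4.08 and 6.53 CPM in Tsc1Δhep and 9.31, 7.87 and 8.15 CPM in Tsc1/p62Δhep, with a log2 fold change of 0.95 ± 0.37 (SE, adjusted p = 0.1001). With Tsc1 intact Col5a3 was higher than in any library of the other table, with 29.99, 35.2 and 34.2 CPM in p62F/F and 36.05, 20.9 and 27.9 in p62Δhep. Over the alternatives its adjusted p ran from 0.0152, without Tsc1Δhep library 3, to 0.315, with library totals and a log2 fold change of 0.58. It was 0.0271 in 1 edgeR fit of all 12 libraries, 0.139 with the replicate block, 0.251 without library 2 of Tsc1Δhep and 0.256 when library 1 of Tsc1/p62Δhep was left out.

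Col27a1, a fibrillar collagen best known from cartilage, shared that order of groups. It read 10.4, 29.4 and 14.8 CPM in p62F/F, 15.5, 12.1 and 16.3 in p62Δhep, 0.593, 1.10 and 3.66 CPM in Tsc1Δhep and 10.1, 8.004 and 8.72 CPM in Tsc1/p62Δhep. Its log2 fold change between the last pair was 2.34 ± 0.62 (SE, adjusted p = 0.0315). That call was lost without Tsc1Δhep library 2 (adjusted p = 0.122), without Tsc1/p62Δhep library 1, 2 or 3 (0.108, 0.0849 and 0.0779) and with library totals (0.0581), all by edgeR, at log2 fold changes of 1.94 to 2.42. Without Tsc1Δhep library 3 it was 3.38 (adjusted p = 0.00198).

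**Figure D2:**
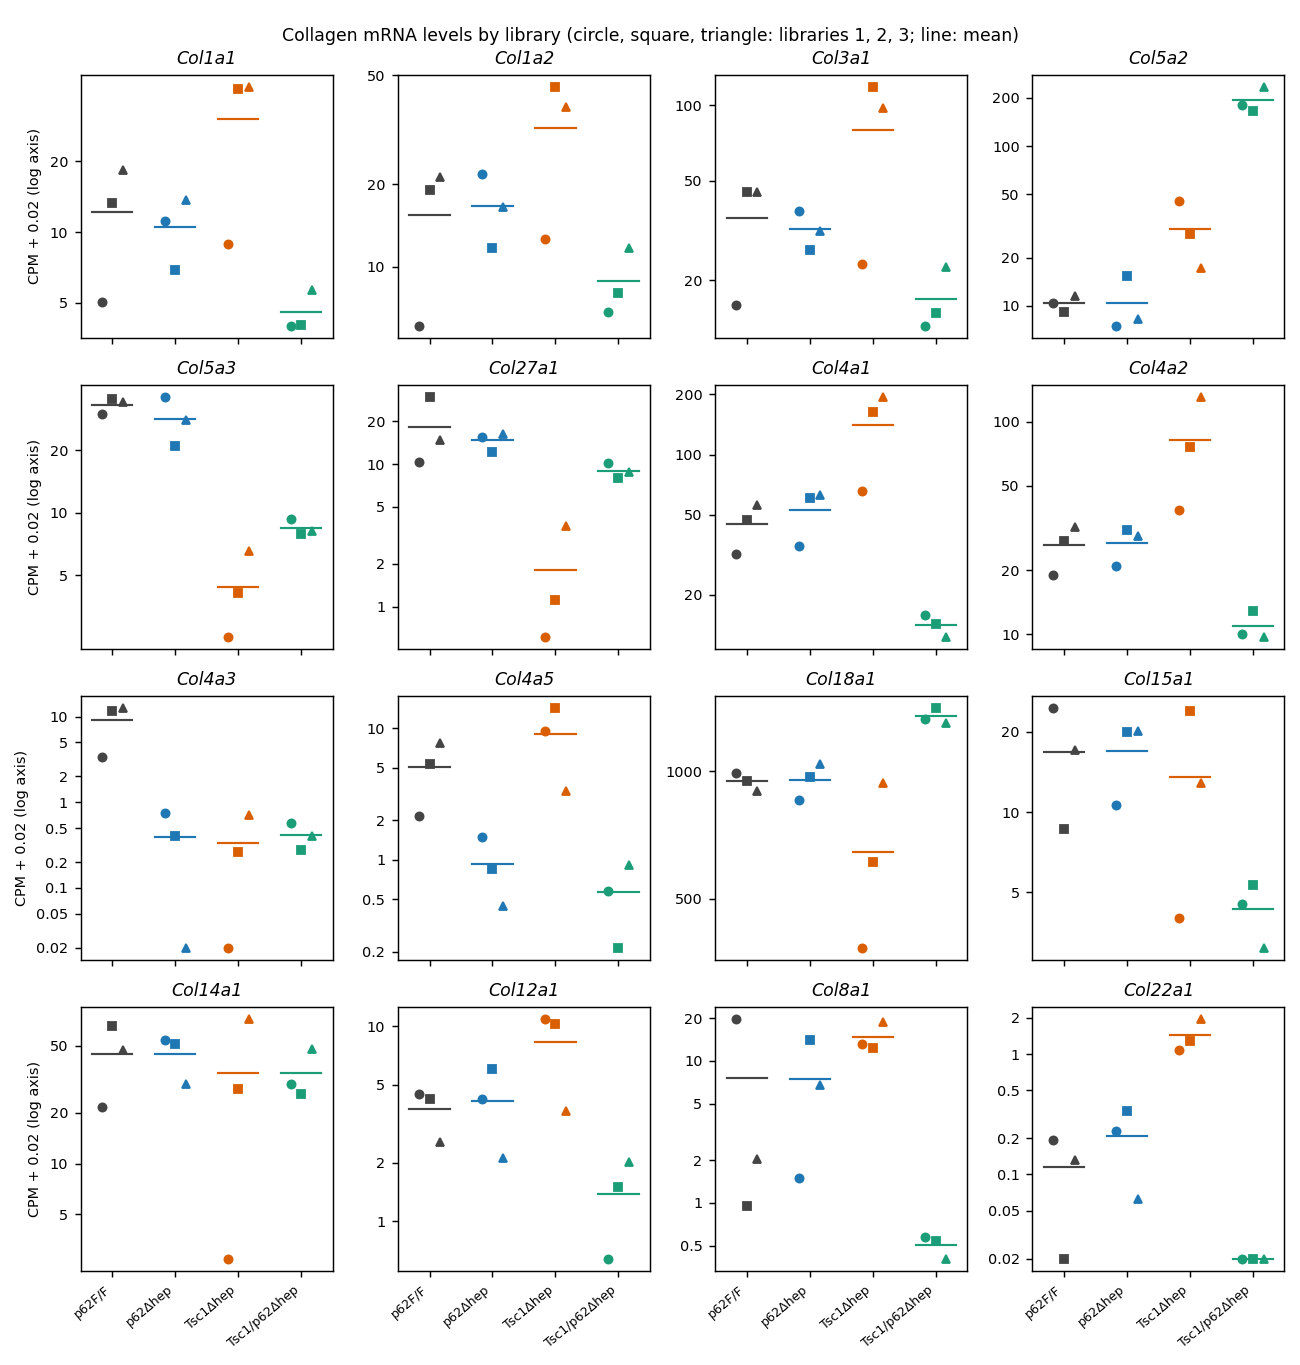
Level of 16 collagen genes in CPM plus 0.02 (vertical axes, log scale) in the 4 groups (horizontal axis), with a circle, square and triangle for libraries 1, 2 and 3 and a line at each group mean. Col5a2 stands between 165 and 236 CPM in Tsc1/p62Δhep and at most 45.4 elsewhere, whereas Col4a1 stands between 12.3 and 15.8 there and at least 31.9 elsewhere.

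Col3a1 and Col5a2 follow each other among the protein-coding genes of chromosome 1 in RefSeq, and their gene bodies do not overlap. The ratio of Col3a1 to Col5a2 per kilobase was 3.36 ± 1.69 (SD, n = 3) in p62F/F, 3.46 ± 1.67 in p62Δhep, 3.38 ± 2.58 in Tsc1Δhep and 0.0838 ± 0.0117 in Tsc1/p62Δhep. The last pair of groups did not overlap. This follows from the levels above, where both genes did not overlap and moved in opposite directions, so the ratio adds no separate evidence. The start regions of Col3a1 and of Col1a2, which fell with it, are shown because the chains share a fibril and moved together. Both run from 250 bases before to 50 after the transcript start, 5′ to 3′ on the gene's strand in RefSeq GRCm38.p6. Capitals mark 3 promoter motifs, searched on both strands and not overlapping here. The CCAAT box was searched as CCAAT. The TATA box was spelled TATAAA for the search. For the GC box the letters were GGGCGG. The windows lie at chr1:45311288-45311587 and chr6:4505368-4505667, both on the plus strand.
Col3a1: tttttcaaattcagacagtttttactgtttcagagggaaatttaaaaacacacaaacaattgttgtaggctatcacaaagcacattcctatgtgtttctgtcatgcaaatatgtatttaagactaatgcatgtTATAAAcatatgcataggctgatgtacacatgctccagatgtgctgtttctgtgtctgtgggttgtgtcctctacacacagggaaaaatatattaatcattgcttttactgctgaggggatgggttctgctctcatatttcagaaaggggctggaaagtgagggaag
Col1a2: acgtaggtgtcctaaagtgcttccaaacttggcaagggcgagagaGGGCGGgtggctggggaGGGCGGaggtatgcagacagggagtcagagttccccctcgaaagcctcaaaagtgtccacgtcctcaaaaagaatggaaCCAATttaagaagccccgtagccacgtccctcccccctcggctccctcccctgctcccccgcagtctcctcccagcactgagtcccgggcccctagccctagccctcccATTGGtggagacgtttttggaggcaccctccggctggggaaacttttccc
Col3a1 holds 1 TATA box and neither of the others, and Col1a2 holds 2 CCAAT boxes and 2 GC boxes. These are matches of letters at any distance from the start, and whether they act in the promoter was not tested. Of 32851 RefSeq windows of this length, 37.4% hold a CCAAT box, 13.6% a TATA box and 35.7% a GC box on either strand, and of the 20 described collagens with a window 7, 2 and 13 do.

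The type IV class moved one way between Tsc1Δhep and Tsc1/p62Δhep. All 3 chains with enough counts fell, with a class median of -3.32. Col4a1 and Col4a2 encode the chains of the network found in nearly all basement membranes. Col4a1 read 66.2, 164 and 194 CPM in Tsc1Δhep and 15.8, 14.3 and 12.3 CPM in Tsc1/p62Δhep, with no overlap. Its log2 fold change was -3.32 ± 0.41 (SE, adjusted p = 0.00250). Col4a2 read 38.5, 76.1 and 130.1 CPM and then 10.01, 12.9 and 9.69 CPM, with a log2 fold change of -2.90 ± 0.44 (SE, adjusted p = 0.00489). Both falls held without any 1 library. Where Tsc1 was intact, Col4a1 read 31.9, 47.2 and 55.8 CPM in p62F/F and 35.1, 60.6 and 62.7 in p62Δhep, and Col4a2 18.9, 27.6 and 31.99 CPM and 20.95, 30.9 and 28.8. So Tsc1/p62Δhep held the lowest level of both chains and Tsc1Δhep the highest, with p62F/F and p62Δhep overlapping between them.

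Both chains are read from 1 shared start region on opposite strands, which is shown because the pair moved together. Col4a1 lies on the minus strand at chr8:11312777-11313076 and Col4a2 on the plus strand at chr8:11312555-11312854, and the windows share 78 bases, chr8:11312777-11312854.
Col4a1: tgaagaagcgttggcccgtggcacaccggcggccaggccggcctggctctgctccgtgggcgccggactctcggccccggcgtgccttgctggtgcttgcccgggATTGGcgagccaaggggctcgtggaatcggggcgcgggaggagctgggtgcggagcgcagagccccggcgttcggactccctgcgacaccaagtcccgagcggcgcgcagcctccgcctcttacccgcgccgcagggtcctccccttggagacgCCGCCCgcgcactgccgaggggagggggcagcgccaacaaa
Col4a2: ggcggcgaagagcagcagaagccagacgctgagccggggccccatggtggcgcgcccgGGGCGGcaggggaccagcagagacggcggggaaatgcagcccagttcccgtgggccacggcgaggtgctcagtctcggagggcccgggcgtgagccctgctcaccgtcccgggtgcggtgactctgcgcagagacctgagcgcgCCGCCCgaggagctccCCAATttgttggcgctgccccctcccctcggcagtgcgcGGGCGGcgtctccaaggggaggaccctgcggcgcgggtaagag
Capitals mark the same motifs as above. Col4a1 holds 1 CCAAT box and 1 GC box, and Col4a2 holds 1 and 3. The GC box of Col4a1 lies in the shared bases and is the same site as the last of Col4a2. The annotated gene bodies overlap in RefSeq, as do those of Col4a3 and Col4a4. No source used here says whether counting used strand, so reads in an overlap could have gone to either gene.

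Col4a5, on the X chromosome, joins Col4a3 and Col4a4 in the network known from kidney and lung. It read 9.49, 14.2 and 3.33 CPM in Tsc1Δhep and 0.556, 0.194 and 0.898 CPM in Tsc1/p62Δhep, with a log2 fold change of -4.03 ± 0.70 (SE, adjusted p = 0.00743). The groups did not overlap, and the call held without any 1 library. The other table had 2.11, 5.32 and 7.72 CPM in p62F/F and 1.48, 0.825 and 0.428 in p62Δhep. Libraries lacking p62 thus lay below those of the other group in both tables, but the log2 fold change of -2.49 ± 0.59 (SE, adjusted p = 0.343) in the first missed the threshold. Col4a3 read 3.31, 11.7 and 12.6 CPM in p62F/F and 0.739, 0.381 and 0 in p62Δhep. It read 0, 0.242 and 0.695 CPM in Tsc1Δhep and 0.556, 0.258 and 0.385 CPM in Tsc1/p62Δhep, so p62F/F alone stood high. Col4a4 also had its highest mean in p62F/F, with 0.686, 2.27 and 2.74 CPM in p62F/F and 0.211, 0.635 and 0.0856 in p62Δhep, and means of 0.388 ± 0.438 (SD, n = 3) and 0.444 ± 0.160 CPM in Tsc1Δhep and Tsc1/p62Δhep.

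For p62Δhep against p62F/F no collagen passed the test. Of 25 tested, 0 were called by edgeR, against 2 of 12567 genes or 0.0159% of all. At an unadjusted p below 0.05 there were 3, namely Col4a3, Col4a4 and Col4a5, against 8.12% of all genes. Col4a3 and Col4a4 met the limit on mean counts only through p62F/F, where they were high, so that limit favoured their falls. For all 3 chains the groups did not overlap, with the p62Δhep libraries lower, as in 6.38% of genes. The log2 fold change was -4.68 ± 0.90 (SE, adjusted p = 0.293) for Col4a3 and -2.70 ± 0.76 (SE, adjusted p = 0.421) for Col4a4. DESeq2, which called 1.36% of genes, called all 3 lower, with adjusted p of 0.0355 for Col4a3, 0.0487 for Col4a4 and 0.00307 for Col4a5. The other 22 chains had log2 fold changes from -0.99 to 0.41 and adjusted p from 0.792 to 0.996, and the groups of each overlapped. Col22a1 had too few counts in that table.

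**Figure D3:**
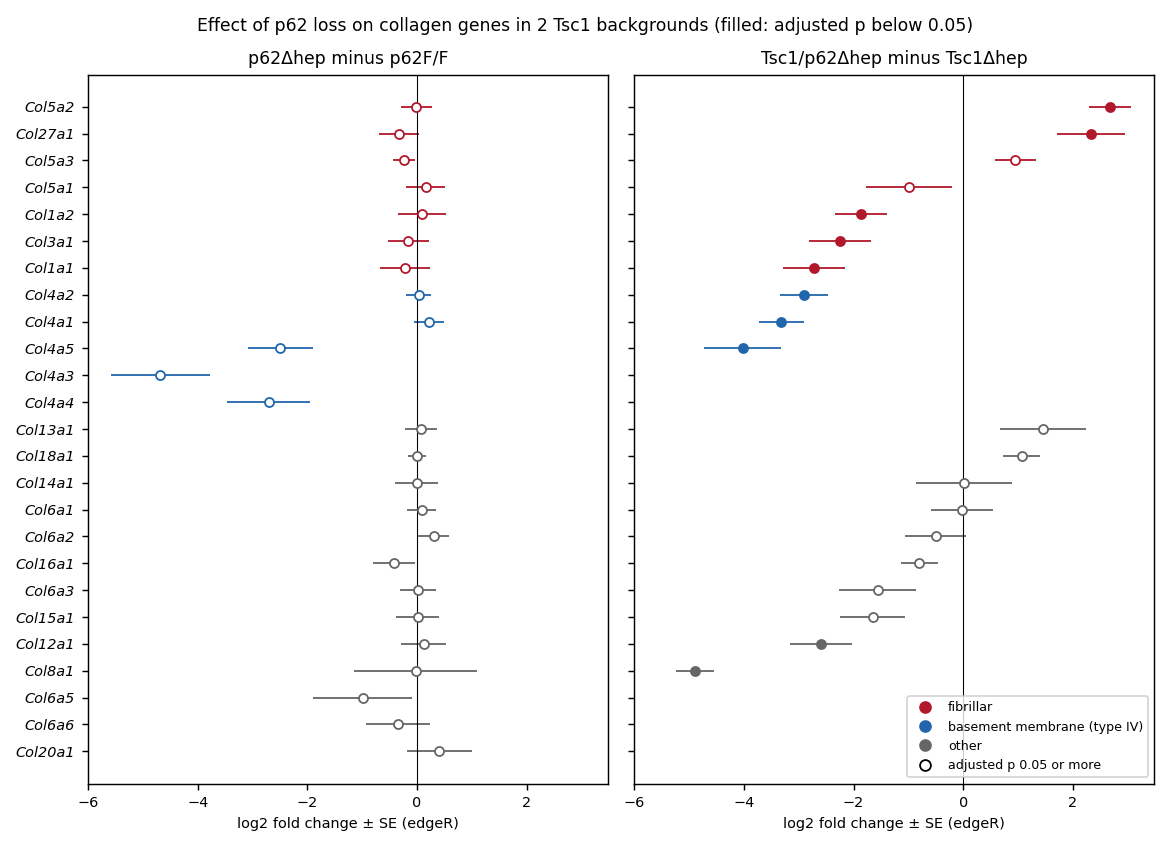
Log2 fold change with its standard error (horizontal axis) for each tested collagen (vertical axis, by class) in p62Δhep against p62F/F (left) and Tsc1/p62Δhep against Tsc1Δhep (right), with filled points for an adjusted p below 0.05. No point is filled on the left, while on the right type IV chains sit between -4.03 and -2.90 and Col5a2 at 2.68. Col22a1 is not drawn, since one group was at 0.

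Among the 14 other collagens, 11 were tested between Tsc1Δhep and Tsc1/p62Δhep, of which 3 fell and 0 rose, against 14.9% and 9.25% of all genes. The unadjusted p was below 0.05 for 6 of the 11, against 39.7% of all genes, and the class median was -0.80. Col8a1, a short-chain collagen of vessel walls, read 13.1, 12.2 and 18.6 CPM in Tsc1Δhep and 0.556, 0.516 and 0.385 CPM in Tsc1/p62Δhep. Its log2 fold change was -4.90 ± 0.35 (SE, adjusted p = 0.000522), the lowest adjusted p of the family in this comparison, and the call held without any 1 library. Its level in the other table was scattered, with 19.8, 0.925 and 2.01 CPM in p62F/F and 1.48, 14.03 and 6.76 in p62Δhep.

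Col12a1 and Col22a1, both fibril-associated collagens that do not form fibrils themselves, fell as well. Col12a1 read 10.9, 10.2 and 3.66 CPM in Tsc1Δhep and 0.625, 1.48 and 1.99 CPM in Tsc1/p62Δhep, with a log2 fold change of -2.59 ± 0.57 (SE, adjusted p = 0.0164). Without Tsc1Δhep library 2 its adjusted p was 0.0596, and without Tsc1/p62Δhep library 1 or 2 it was 0.0660 and 0.0676. Over p62F/F and p62Δhep Col12a1 ranged from 2.10 to 6.03 CPM. Col22a1 read 1.06, 1.26 and 1.95 CPM in Tsc1Δhep, 114 counts in all, and 0 counts in the 3 Tsc1/p62Δhep libraries. Against a floor of 3 counts over the group this is at least 20.95-fold lower, with an adjusted p of 0.00570. The p62F/F libraries held 5 counts of Col22a1 and the p62Δhep libraries 10.

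Col18a1 read 991, 949 and 897 CPM in p62F/F, 853, 968 and 1041 in p62Δhep, 383, 609.6 and 938 CPM in Tsc1Δhep and 1329.6, 1409.7 and 1301 CPM in Tsc1/p62Δhep. With TMM the Tsc1/p62Δhep libraries were the highest of the 12. With CPM from library totals, Tsc1Δhep library 3 (1158) lay above Tsc1/p62Δhep library 3 (1138.5), so those 2 groups overlapped. Its log2 fold change of 1.07 ± 0.34 (SE, adjusted p = 0.0559) against Tsc1Δhep missed the threshold. Over the alternatives its adjusted p ran from 0.00831, without Tsc1Δhep library 3, to 0.194, with library totals and a log2 fold change of 0.69. It passed with DESeq2 (adjusted p = 0.0106), with limma on log2(CPM + 1) (0.0401) and in 1 edgeR fit of all 12 libraries (0.0111). It missed with the replicate block (0.0770), when Tsc1Δhep library 2 was left out (0.172) and when any 1 Tsc1/p62Δhep library was (0.113 to 0.161). Its relative Col15a1, found at vessel and muscle basement membranes, read 3.98, 23.9 and 12.8 CPM in Tsc1Δhep and 4.52, 5.29 and 3.08 CPM in Tsc1/p62Δhep. Library 1 of Tsc1Δhep fell within the range of the other group, and the log2 fold change was -1.66 ± 0.59 (SE, adjusted p = 0.0790). Without that library it was -2.08 with an adjusted p of 0.00821, and without Tsc1Δhep library 2 it was -0.97 with an adjusted p of 0.280, the ends of its range. On all libraries DESeq2 gave 0.0220 and edgeR with the replicate block -1.39 and 0.144.

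Just below the limit on mean counts, Col9a1, a fibril-associated chain of cartilage, was the 1 undescribed collagen tested in this table. It held 51, 24 and 31 counts in Tsc1Δhep and 1, 0 and 2 counts in Tsc1/p62Δhep, with an adjusted p of 0.0124 by edgeR, and is not among the 9 falls counted above.

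Among the described fibril-associated, filament-forming and membrane-spanning chains, Col14a1, Col6a1, Col6a2, Col6a3, Col16a1 and Col13a1 did not pass the test. Col14a1, which binds fibril surfaces, read 2.71, 27.8 and 72.5 CPM in Tsc1Δhep and 29.9, 25.9 and 47.8 CPM in Tsc1/p62Δhep, with a log2 fold change of 0.01 ± 0.88 (SE, adjusted p = 0.992). Tsc1Δhep alone spanned 2.71 to 72.5 CPM, with library 1 the lowest of all 12. The type VI chains, which build beaded filaments around cells, had log2 fold changes (± SE) of -0.03 ± 0.57 (adjusted p = 0.977) for Col6a1, -0.50 ± 0.56 (adjusted p = 0.527) for Col6a2 and -1.56 ± 0.70 (adjusted p = 0.139) for Col6a3, none past the threshold. Col16a1, another fibril-associated chain, had -0.80 ± 0.34 (adjusted p = 0.117), and Col13a1, which spans the cell membrane, had 1.45 ± 0.78 (adjusted p = 0.201). Levels of Col13a1 were 3.65 ± 1.30 CPM in p62F/F and 3.84 ± 0.440 in p62Δhep against 0.421 ± 0.328 in Tsc1Δhep and 1.18 ± 0.546 in Tsc1/p62Δhep. The low chains Col6a5, Col6a6 and Col20a1 ranged from 0 to 3.63 CPM over all libraries.

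Ratios of partner chains within a library do not depend on scaling. Col1a1 to Col1a2 per kilobase was 1.503 ± 0.163 (SD, n = 3) in p62F/F, 1.21 ± 0.310 in p62Δhep, 1.69 ± 0.361 in Tsc1Δhep and 0.986 ± 0.101 in Tsc1/p62Δhep. The last pair did not overlap (two-sided exact permutation test, p = 0.1, the smallest possible). Col4a1 to Col4a2 was 1.52 ± 0.0249, 1.72 ± 0.221, 1.59 ± 0.301 and 1.17 ± 0.213, and the last pair overlapped (exact permutation p = 0.2). Col5a2 to Col5a1 lay between 0.705 and 2.52 in the first table and between 34.8 and 44.6 in Tsc1/p62Δhep. In Tsc1Δhep it was 43.1 in library 1, 2.34 in library 2 and 1.06 in library 3, so library 1 lay among those lacking both genes (exact permutation p = 0.3).

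**Figure D4:**
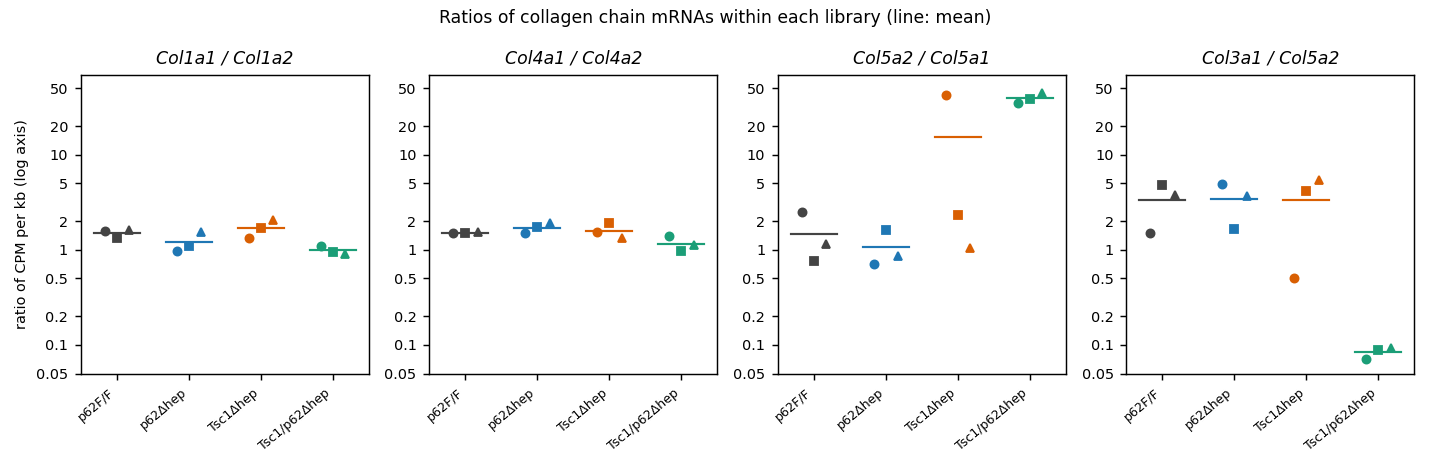
Ratio of 2 collagen chains per kilobase of exon (vertical axes, log scale) in each library (points) of the 4 groups (horizontal axis). The ratio of Col5a2 to Col5a1 lies between 34.8 and 44.6 in Tsc1/p62Δhep and at 43.1 in 1 Tsc1Δhep library, while that of Col1a1 to Col1a2 stays between 0.910 and 2.05 in all 12.

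The effect of p62 loss was then compared between the tables, with 1 model of all 12 libraries and the interaction (± SE) as the tested contrast. Only p62F/F lacks Cre, so this contrast cannot tell an effect of Cre in the first table from that of p62 loss. Of 26 collagens, 6 had a lower and 3 a higher change in the Tsc1-deleted mice, against 9.32% and 6.76% of 13231 genes. Among them, Col4a1 (interaction -3.56 ± 0.52, adjusted p = 0.00206), Col4a2 (-2.95 ± 0.52, adjusted p = 0.00467) and Col5a2 (2.68 ± 0.49, adjusted p = 0.00529) kept the call without any 1 library, as did Col22a1. For Col4a3 the interaction was 5.04 ± 1.51, adjusted p = 0.0425, and its level was at most 0.739 CPM in all 3 groups other than p62F/F. Col4a3 met the limit on mean counts only through p62F/F and Col22a1 only through Tsc1Δhep, which favoured both calls. Col1a1, Col8a1, Col12a1 and Col27a1 also passed. The count of lower chains was 3 without library 2 of p62F/F, of p62Δhep or of Tsc1Δhep or library 1 or 2 of Tsc1/p62Δhep, and 11 without Tsc1Δhep library 1. The count of higher chains was 1 without library 2 of p62F/F or of Tsc1Δhep, library 2 or 3 of p62Δhep or any 1 Tsc1/p62Δhep library, and 6 without Tsc1Δhep library 3. Over all genes the contrast was higher for 894 and lower for 1233. Library totals with no scaling moved the median by -0.32 and gave 419 and 2391, and removing trends by GC content and length gave 1589 and 1322.

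Side by side and untested, Tsc1Δhep lay above p62F/F with no overlap for 4 of 26 collagens (Col4a1, Col4a2, Col5a2 and Col22a1), as for 22.8% of genes. It lay below for 5 (Col4a3, Col5a3, Col6a6, Col13a1 and Col27a1), as for 23.3%. With library totals in place of TMM the counts were 5 and 5, against 32.5% and 14.3% of genes. Tsc1/p62Δhep lay above p62Δhep for 2 (Col5a2 and Col18a1), against 24.1% of genes, and below for 15, against 26.9%, or 2 and 16 with library totals, against 18.1% and 30.8%. Tsc1Δhep is in both the test against Tsc1/p62Δhep and the first of these comparisons, which are therefore not independent.

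Other genes of the collagen pathway are read against the 14.9% of all genes that fell and the 9.25% that rose between Tsc1Δhep and Tsc1/p62Δhep. Of 15 tested genes of chain folding and modification, 0 rose and 3 fell, a share near that of all genes, with a median log2 fold change of -0.77 against -0.05 for all genes, and values of single genes are given ± SE. Crtap, a subunit of the prolyl 3-hydroxylase complex, read 18.002, 16.3 and 14.8 CPM in Tsc1Δhep and 2.99, 3.10 and 3.34 CPM in Tsc1/p62Δhep, with a log2 fold change of -2.38 ± 0.24 (adjusted p = 0.00119). The galactosyltransferase gene Glt25d1 had -1.05 ± 0.22 (adjusted p = 0.0132) and the lysyl hydroxylase gene Plod2 -3.35 ± 0.77 (adjusted p = 0.0192). The chaperone gene Serpinh1, which serves all collagens, had -1.36 ± 0.42 (adjusted p = 0.0522) and did not pass. Of 11 tested genes of procollagen processing and crosslinking, 0 rose and 6 fell, or 54.5%, with a median of -2.95. The lysyl oxidase gene Loxl2 read 27.4, 44.7 and 38.998 CPM in Tsc1Δhep and 1.60, 1.68 and 2.50 CPM in Tsc1/p62Δhep, with a log2 fold change of -4.26 ± 0.32 (adjusted p = 0.000553). Sparc, whose product binds collagen, had -2.95 ± 0.29 (adjusted p = 0.00119). Pcolce, an enhancer of procollagen C-proteinase, had -3.49 ± 0.51 (adjusted p = 0.00424). The other 3 that fell were Adamts14, Lox and Loxl4.

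More basement membrane partners fell than rose. Of 16 tested, 6 fell and 1 rose, or 37.5% and 6.25%, against 14.9% and 9.25% of all genes, with a median of -0.83. Nid1, which links laminin to type IV collagen, stood at -2.65 ± 0.38 (adjusted p = 0.00387), and the laminin chain gene Lama5 had -2.54 ± 0.38 (adjusted p = 0.00489). The laminin chain gene Lama3 read 0.932, 1.15 and 2.08 CPM in Tsc1Δhep and 16.96, 13.2 and 9.17 CPM in Tsc1/p62Δhep, with a log2 fold change of 3.24 ± 0.42 (adjusted p = 0.00269). Of 8 collagen receptor genes tested, 0 rose and 3 fell, or 37.5%. The receptor kinase gene Ddr1 had -4.53 ± 0.48 (adjusted p = 0.00145), the adhesion receptor gene Gpr56 -3.06 ± 0.36 (adjusted p = 0.00202) and the leukocyte receptor gene Lair1 -2.89 ± 0.41 (adjusted p = 0.00375). Of 12 genes of TGF-beta ligands and targets, 0 rose and 4 fell, or 33.3%, with Tgfb2 at -5.07 ± 0.39 (adjusted p = 0.000553) and Ctgf at -2.07 ± 0.44 (adjusted p = 0.0152). In p62Δhep against p62F/F, 0 genes of these 5 lists were called, where edgeR called only 2 of 12567 genes or 0.0159%. The log2 fold changes there were -2.29 ± 0.48 for Nid1, -1.32 ± 0.32 for Lama5 and -0.22 ± 0.57 for Lama3. Their adjusted p was 0.307, 0.343 and 0.942.

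Markers of collagen-making and other cells are given between Tsc1Δhep and Tsc1/p62Δhep, beside the same 14.9% of all genes that fell and 9.25% that rose. Of 10 stellate and fibroblast markers, 0 rose and 3 fell, namely the contractile genes Acta2 and Tagln and the pericyte gene Rgs5. Their sum ranged from 32.7 to 189 CPM in Tsc1Δhep and from 205 to 272 in Tsc1/p62Δhep, and it was 166 to 332 in p62F/F and 204 to 326 in p62Δhep. With TMM all 3 sums in Tsc1/p62Δhep were thus above those in Tsc1Δhep, but with CPM from library totals they overlapped, at 35.6 to 230.2 in Tsc1Δhep and 187 to 238 in Tsc1/p62Δhep. Dcn, the gene of a small fibril-binding proteoglycan, and Reln made up most of the sum in Tsc1/p62Δhep. Dcn averaged 44.7 ± 38.0 CPM (SD, n = 3) in Tsc1Δhep and 145 ± 21.3 in Tsc1/p62Δhep, and Reln 12.4 ± 15.7 and 49.9 ± 9.57, with adjusted p of 0.165 and 0.206. Of 8 endothelial markers 1 fell (Pecam1), or 12.5%, with sums of 35.4 to 191 and 121 to 159 CPM, against 158 to 212 in the first table. Of 6 tested cholangiocyte markers 3 fell (Sox9, Spp1 and Tspan8), with sums of 751 to 5160 and 83.8 to 132, against 80.0 to 496 in the first table. Spp1 alone made up most of the cholangiocyte sum in every library, with 5069, 2191 and 714 CPM in Tsc1Δhep. Krt7, Krt19 and Epcam were not called (adjusted p = 0.340, 0.0569 and 0.175 by edgeR). Of 7 macrophage markers 3 fell, with sums of 65.1 to 196 and 80.6 to 96.4, against 343 to 651. Of 6 portal fibroblast and mesothelial markers 3 rose (Msln, Upk3b and Gpm6a). Thy1, Fbln2 and Eln of the same list had negative log2 fold changes, at -1.59, -1.08 and -1.70. None of these was called (adjusted p = 0.141, 0.0972 and 0.215 by edgeR). Of 8 hepatocyte markers 3 rose, with sums of 26374 to 56709 and 81169 to 111024. All 3 proliferation markers fell. No marker of these lists was at 0 in all 12 libraries. Their part in the collagen results was not tested.

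**Figure D5:**
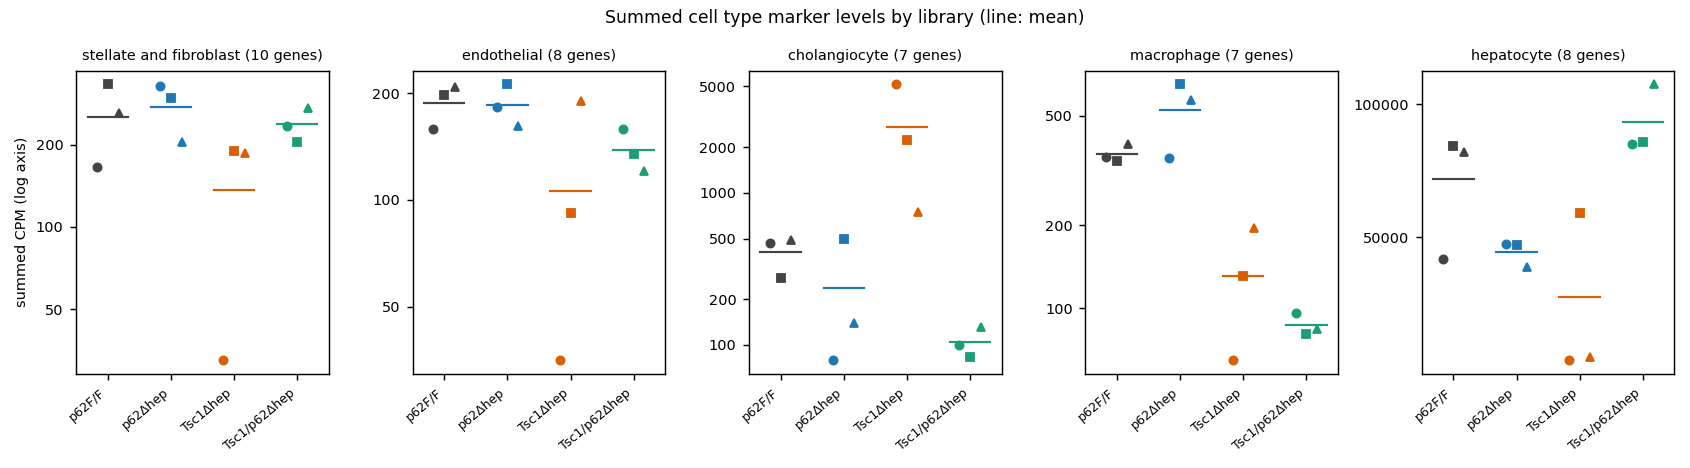
Summed CPM of cell type markers (vertical axes, log scale) in each library (points) of the 4 groups (horizontal axis). Stellate and fibroblast markers lie between 205 and 272 in Tsc1/p62Δhep, and cholangiocyte markers between 83.8 and 132 there against 751 to 5160 in Tsc1Δhep. Most of the cholangiocyte sum is Spp1 in every library.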

How the data were processed

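Per the labels' protocols, liver RNA was taken with Trizol, poly(A)-selected and made into libraries with a strand-directed kit, read single-end or paired-end on 2 Illumina instruments, with no note of which library went on which. The authors deposited 2 tables of gene counts, each with 6 libraries, as whole numbers with no normalization, judging by the values. The submitters' processing notes name the build hg19, although the symbols are mouse ones, and for the aligner, counter, annotation and use of strand the sources used here give nothing. No gene coordinates of that build were used, and start regions come from RefSeq GRCm38.p6. Of the gene names, 27 had been turned into dates and are not named here.

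The filter was filterByExpr of edgeR, with minimum counts of 10 and, over all libraries, 15. Scaling was by TMM, and groups were tested within a table with edgeR's quasi-likelihood test (edgeR 4.0.16, R 4.3.3) at a Benjamini-Hochberg adjusted p below 0.05 over all genes. Both tables entered 1 model for the interaction. Standard errors are the log2 fold change divided by the square root of F. Printed CPM values use TMM over all 12 libraries, and levels per kilobase divide by the union exon length of GENCODE M21, matched by symbol for 44 of 44 members. The fitting code was tested on simulated data. Replicate pairs differed beyond counting noise (chi-square per gene 36.2 to 325), so none was merged. Alternatives used limma 3.58.1 (on log2(CPM + 1)) and DESeq2 1.42.0, among other settings. The 2 libraries doubted for their Tsc1 or Rn45s level were left out together in 1 of them.

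Values per library are given for the 3 members of each class with the highest mean count, for members called in a comparison or the interaction, and for members that moved against most of their class with an unadjusted p below 0.05. Other genes are the 3 called members of each list with the smallest p, of which 1 is not reported here. Serpinh1 and the remaining called list members were named after their values were seen. The members, lists and tests were chosen with earlier results of these data known.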

Additional observations from a re-analysis of the deposited data

Results flagged for a closer look

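For 9 collagens the change with p62 loss differed between the mice with and without the Tsc1 deletion, by edgeR's interaction test over all 12 libraries. The pair without that deletion also differs in Cre, which this test cannot tell apart from p62 loss. Each value is the log2 change in the Tsc1-deleted pair minus that in the other pair. Type IV chains took both directions, with Col4a1 at -3.56 (adjusted p = 0.00206), Col4a2 at -2.95 (adjusted p = 0.00467) and Col4a3 at 5.04 (adjusted p = 0.0425). The changes of Col4a1 and Col4a2 were -3.32 and -2.90 in the Tsc1-deleted pair and 0.22 and 0.03 in the other. Col4a3 was below 1 CPM in both groups of the second table. Of the fibrillar chains, Col5a2 was at 2.68 (adjusted p = 0.00529), Col27a1 at 2.66 (adjusted p = 0.0321) and Col1a1 at -2.53 (adjusted p = 0.0473). Of the others, Col12a1 was at -2.72 (adjusted p = 0.0286) and Col8a1 at -4.87 (adjusted p = 0.0425). For Col8a1 it was -7.23 without p62F/F library 1 and -4.03 without p62Δhep library 2, and the call was lost in 9 of the 12 fits without 1 library. For Col4a3 it was 6.16 without Tsc1Δhep library 3, 6.13 without p62Δhep library 1 and 4.40 without p62Δhep library 3, and for Col27a1 3.69 without Tsc1Δhep library 3. Col22a1 was at -8.81 (adjusted p = 0.0113), a value that depends on the prior count because Tsc1/p62Δhep had 0 counts. Both Col22a1 and Col4a3 met the limit on mean counts only through the group where each was high. Only Col4a1, Col4a2, Col5a2 and Col22a1 kept the call in each of the 12 fits without 1 library.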

How the results depend on the processing

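No named collagen changed direction in any alternative. In p62Δhep against p62F/F the 0 calls by edgeR held in every alternative except DESeq2, which called 3 lower, and leaving out each library gave 0 to 0. In Tsc1/p62Δhep against Tsc1Δhep, leaving out each library gave 5 to 13 collagens lower and 1 to 4 higher. The other alternatives gave 6 to 11 lower, and 4 higher in 1 fit of all 12 libraries, 4 with trends by GC content and length removed and 1 with library totals. In the interaction, leaving out each library gave 3 to 11 lower and 1 to 6 higher. The count of higher chains was 5 with DESeq2, 5 with trends removed, 5 without Tsc1Δhep library 3 and Tsc1/p62Δhep library 1 together, and 1 with library totals. The cause was not tested. Settings added after seeing the data were the trends removed, the library totals in edgeR and for single collagens and marker sums, and the 2 libraries left out together.

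Libraries of the same number did not deviate together (correlation -0.514 to 0.0369 in the first table and -0.125 to -0.0817 in the second, and 0 of 12 libraries correlated best with their own number). With so few libraries per group this cannot exclude a shared litter or day, and the labels do not give either. With the replicate block the interaction called 2 lower and 1 higher, Tsc1/p62Δhep against Tsc1Δhep 8 lower and 2 higher, without Col12a1 (adjusted p = 0.0596), and p62Δhep against p62F/F 0.

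Summed levels in CPM per kb moved most with the class definition. With Col15a1 and Col18a1 counted as basement membrane, that class became 149, 149.9, 126 and 196 in p62F/F, p62Δhep, Tsc1Δhep and Tsc1/p62Δhep, so Tsc1/p62Δhep went from the lowest group to the highest, and the other collagens became 12.0, 12.1, 11.9 and 8.18. In Tsc1/p62Δhep, library totals gave 3.33 for type IV and 180.5 for the other collagens, and totals without Rn45s 3.34 and 181. Leaving out each library, the group means ranged from 3.57 to 40.9 for type IV, 12.5 to 27.5 for fibrillar and 81.1 to 203 for other collagens. Depth limits Col4a3, Col4a4 and Col22a1, which had at most 19 counts in any library outside 1 group.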
